A study of Mus musculus with 2 samples.

Results

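The endothelin ligand gene Edn1, its converting enzyme gene Ece1 and the receptor genes Ednra and Ednrb were followed in single cells of the mouse heart at the stage E11.5 (days after conception). These 4 genes were taken by name from the 22401 features of the deposited count tables, and all 4 were found. The study deleted Hand2, a basic helix-loop-helix transcription factor gene, from the endocardium, to learn which genes depend on it there. One library came from control hearts of the genotype Hand2fx/+ R26RmTmG/wt, which carry 1 floxed Hand2 allele and no Cre. The other came from hearts labelled H2CKO, of the genotype Nfatc1Cre/wt Hand2fx/fx R26RmTmG/wt, in which Cre made from the Nfatc1 locus acts in the endocardium and its descendants. Both groups thus carry at least 1 floxed allele and a copy of the mTmG reporter, which turns from a red membrane protein to GFP in cells where Cre has acted. Embryos of both groups came from crosses of a Hand2fx/+ Nfatc1Cre male with a homozygous floxed reporter female, and were kept on ice for about 3 hours before dissociation. The labels do not give the number or sex of the embryos behind each library. With 1 library per genotype there is no replicate, so no difference between them was tested, and the 95% intervals given cover counting error only.

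Endothelin-1 is made as a long precursor that furin-type proteases cut to big endothelin, which the membrane enzyme ECE1 then cuts to the active peptide. The peptide acts on nearby cells through 2 G protein-coupled receptors, endothelin receptor A (Ednra) and endothelin receptor B (Ednrb). In the embryo, endothelial cells are a known source of the ligand, and receptor A in neural crest cells is needed to form the pharyngeal arches and the outflow vessels of the heart. In that setting Hand2 is a known target of the pathway.

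Filtering left 8921 cells of the control and 11533 of H2CKO, whose median cell held 16250 and 13432 UMIs (counted RNA molecules). The libraries shared 29 cell barcodes among the kept cells. Cells were clustered without using the 4 genes, and clusters were called by markers. The endothelial-like class (128 control and 486 H2CKO cells) showed all 12 listed endothelial markers, each in at least 10% of its cells. A second endothelial cluster (264 and 269 cells), led by Stmn2, Wnt4 and Klf2, showed 11 of the 12 but had none among its 10 leading genes, so it was kept apart and not named. The other classes were mesenchymal-like (1648 and 1145 cells), epicardial-like (689 and 210), cardiomyocyte-like (2198 and 2964), white blood cell-like (78 and 110) and erythroid-like (2740 and 4988). Levels are given as CPM, the UMIs of a gene summed over a class and scaled to 1000000 UMIs of that class. Log2 ratios are those of CPM plus 5, H2CKO over control. A gene was compared where the library with the higher level had at least 20 CPM and 20 UMIs, and a ratio was called past 2-fold at a log2 size of at least 1. The erythroid-like cells, which should lack these genes, gave the level of free RNA: their highest value for any of the 4 genes was 0.777 CPM, and 1.35% of cells had a UMI, at median depths of 18339.5 and 13230.5 UMIs.

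Hand2, the deleted gene, was at 170 CPM in control and 12.9 CPM in H2CKO endothelial-like cells, and at 254 and 7.80 CPM in the second endothelial cluster. In mesenchymal-like cells, many of which descend from endocardium, it was at 183 and 54.2 CPM. In cardiomyocyte-like cells it was at 74.2 and 72.2 CPM, a ratio of 0.973 (0.930 to 1.02). The labels do not say which part of Hand2 is floxed, so whether counts made at the 3′ end can include RNA of a deleted allele is not known. Erythroid markers differed between the libraries: in the endothelial, mesenchymal-like, epicardial-like and cardiomyocyte-like groups all 11 measured were higher in H2CKO, with summed levels of 25434 and 41981 CPM in endothelial-like cells, 14451 and 50470 CPM in the second cluster, 11942 and 52858 CPM in mesenchymal-like, 11444 and 48072 CPM in epicardial-like and 15449 and 25678 CPM in cardiomyocyte-like cells. In white blood cell-like cells 8 were higher and 3 lower (34990 and 38064 CPM). Their part in the ratios given here was not tested. The median log2 ratio of all compared genes was not at 0: it was -0.25 in endothelial-like, -0.23 in mesenchymal-like and -0.16 in cardiomyocyte-like cells. It also ran lower for genes with a longer span in the genome (Spearman's rho of -0.45 in endothelial-like cells, a description across genes). This touches the results on Ece1, Ednra and Ednrb. Ratios of the further pathway genes, and counts of them past 2-fold, were not corrected for span.

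In the GENCODE annotation of build GRCm38, Edn1 is a short gene of 6.515 kb on the plus strand at chr13:42301476-42307990. Ece1 spans 102.993 kb on the plus strand at chr4:137862237-137965229, Ednra 61.434 kb on the minus strand at chr8:77663031-77724464, and Ednrb 29.778 kb on the minus strand at chr14:103814625-103844402. Antisense or opposite-strand transcripts overlap Edn1 (Gm47118), Ece1 (Gm13012) and Ednra (4933431K23Rik), and none of these had a row in the tables. HAND2 and its partners bind E-boxes, whose letters are CANNTG, so the 250 bases before each start listed by RefSeq (GRCm38.p6) were searched for them. Ece1 has 4 such starts, which counts made at the 3′ end of the RNA cannot tell apart. The windows of Edn1 and of Ece1 starts 1 and 3 are shown, since these 2 genes differed most between the libraries. They read 5′ to 3′ on the gene's strand, with E-boxes in capitals, and lie at chr13:42301226-42301475, chr4:137861987-137862236 and chr4:137913308-137913557.
Edn1: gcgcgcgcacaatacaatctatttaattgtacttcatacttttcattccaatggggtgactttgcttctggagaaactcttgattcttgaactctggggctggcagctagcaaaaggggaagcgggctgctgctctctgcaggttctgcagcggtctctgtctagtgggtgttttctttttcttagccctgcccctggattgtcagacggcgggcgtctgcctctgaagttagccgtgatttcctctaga
Ece1, start 1: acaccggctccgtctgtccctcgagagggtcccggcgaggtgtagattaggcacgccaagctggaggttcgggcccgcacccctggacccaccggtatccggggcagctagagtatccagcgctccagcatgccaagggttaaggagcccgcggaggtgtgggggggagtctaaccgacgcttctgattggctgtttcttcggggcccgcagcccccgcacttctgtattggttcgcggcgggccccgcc
Ece1, start 3: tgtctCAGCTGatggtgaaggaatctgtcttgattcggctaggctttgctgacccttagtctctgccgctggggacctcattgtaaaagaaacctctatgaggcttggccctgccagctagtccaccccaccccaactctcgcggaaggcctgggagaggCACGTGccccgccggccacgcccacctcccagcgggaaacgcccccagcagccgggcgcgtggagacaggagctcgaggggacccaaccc
The window of Edn1 held no E-box, and neither did those of Ece1 starts 1 and 2 or of Ednrb. Ece1 start 3 had 2 (CAGCTG and CACGTG), start 4 had 3, and Ednra had 1 (CAAGTG, 214 bases before the start). Among the windows of the same length for all 32851 listed starts, 66.2% held at least 1 E-box. The letters CACCC, found on either strand and bound by KLF factors, occurred 2 times before each of Edn1, Ednrb and Ece1 start 3. They occurred 1 time before Ece1 starts 1 and 2, 0 times before Ece1 start 4 and Ednra, and in 52.0% of all windows. A match to letters is no evidence of binding, and its absence here concerns only these 250 bases.

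Edn1, the ligand gene, was highest in part of the endothelium, with clear sites outside it. In control hearts it was highest in the second endothelial cluster, at 229 CPM (215 to 243; 1017 UMIs). The other levels, in order, were 54.7 CPM in endothelial-like cells (45.0 to 65.8; 111 UMIs), 47.5 CPM in mesenchymal-like (44.8 to 50.4) and 33.4 CPM in epicardial-like cells (30.1 to 37.0). The endothelial-like and mesenchymal-like intervals overlapped, so these neighbours could not be put in order. In cardiomyocyte-like cells Edn1 was at 3.27 CPM (2.76 to 3.85), above the free RNA level of 0.622 CPM. The cell richest in Edn1, in the second cluster of the control, held 66 UMIs.

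**Figure D1:**
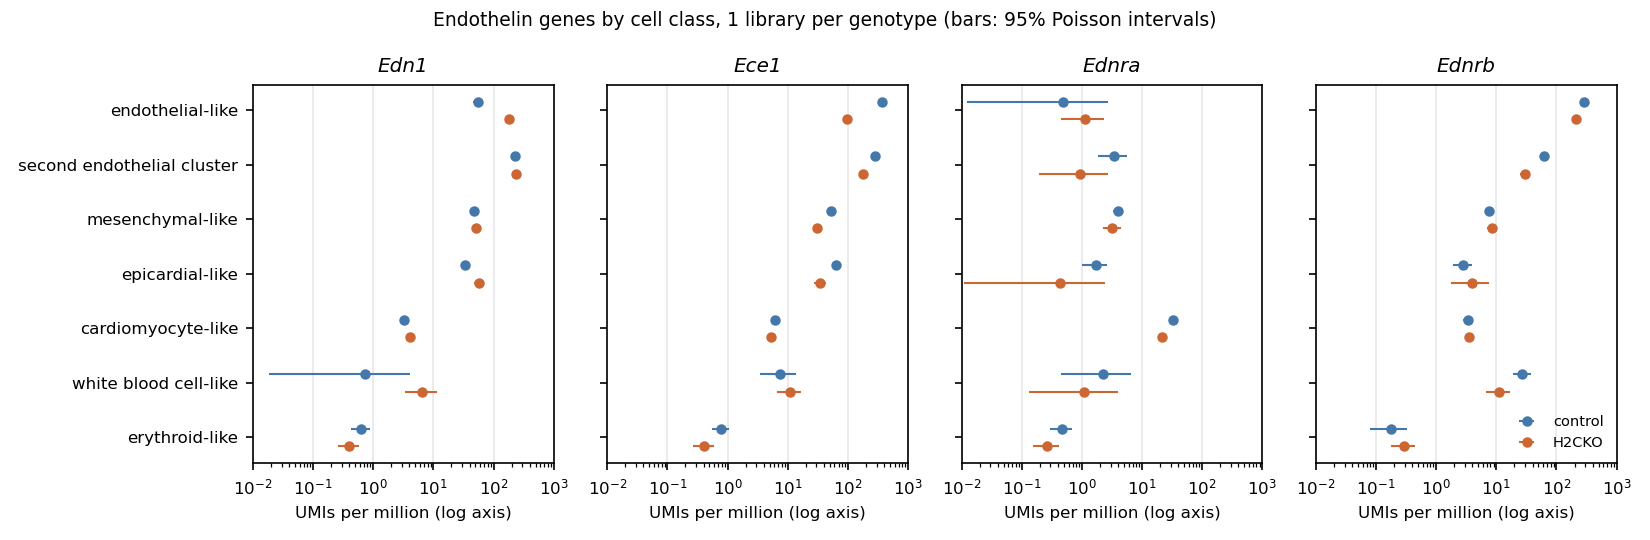
Levels of Edn1, Ece1, Ednra and Ednrb in CPM (log axis) in 7 groups of cells, control in blue and H2CKO in orange; points are sums over the cells of 1 library and bars are 95% Poisson intervals. Ece1 and Ednrb were highest in both endothelial groups and Ednra in cardiomyocyte-like cells, in both libraries. Edn1 was highest in the second endothelial cluster, and in control its endothelial-like and mesenchymal-like intervals overlapped.

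In H2CKO hearts, Edn1 in endothelial-like cells was at 181 CPM (171 to 192; 1139 UMIs), 3.31 times the control (2.72 to 4.06), a log2 ratio of 1.64. The share of endothelial-like cells with an Edn1 UMI was 26.6% (34 cells) in control and 68.5% (333 cells) in H2CKO. The H2CKO cells were the shallower ones (medians of 13443.5 and 10726.5 UMIs), and with every cell thinned to 5000 UMIs the shares were 17.1% and 54.0%, after leaving out 11 and 29 shallower cells. Cells with 5 or more Edn1 UMIs made up 6.25% of the control and 16.9% of the H2CKO class. In this class 2 of the 3 genes that could be compared were past 2-fold, Edn1 upward and Ece1 downward, against 9.67% of all 6321 compared genes, 1.44% upward and 8.23% downward. The Edn1 log2 ratio was above that of 99.6% of those genes.

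The second endothelial cluster did not show this difference. Its Edn1 level was 229 CPM in control and 235 CPM in H2CKO (753 UMIs), a ratio of 1.03 (0.934 to 1.13), and 61.0% and 64.3% of its cells had a UMI. With both clusters combined the Edn1 log2 ratio was 0.19, which is not past 2-fold. The result therefore rests on which endothelial cells are compared. The balance of the clusters differed, since the endothelial-like class was 1.43% of kept control cells and 4.21% of kept H2CKO cells, and the second cluster was 2.96% and 2.33%. The state of the endothelial-like cells differed as well. All 7 endocardial markers were lower in H2CKO (summed level 2057 CPM in control, 754 CPM in H2CKO), and 6 of 8 vascular endothelial markers were higher (274 and 506 CPM). The 12 mesenchymal markers summed to 1583 and 530 CPM. The second cluster, where the interval of the Edn1 ratio included 1, also had all 7 endocardial markers (2429 and 1565 CPM) and all 12 mesenchymal markers (4316 and 2001 CPM) lower in H2CKO, and 6 of 8 vascular endothelial markers higher, though their sum was not (193 and 165 CPM). Within cells with a UMI of Npr3 or Nfatc1, genes that mark endocardium (109 control and 320 H2CKO cells), Edn1 was at 53.2 and 185 CPM, a log2 ratio of 1.71. Within the 19 control and 166 H2CKO cells without either it was at 70.4 CPM (12 UMIs) and 169 CPM, a log2 ratio of 1.21. Both genes of this split are among those lower in H2CKO, where Cre also sits at Nfatc1, and the share of endothelial-like cells with a UMI of either was 85.2% in control and 65.8% in H2CKO, so the split does not match like cells. The part of cell state in the Edn1 difference was not tested.

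Outside the endothelium the ligand was concentrated in particular clusters. Of the mesenchymal-like clusters, the one led by Inhba, Tgfbi, Meox1 and Postn had 82.9 CPM of Edn1 in control (77.4 to 88.6) and 95.5 CPM in H2CKO (86.9 to 105), with a UMI in 50.9% and 46.8% of its cells. The mesenchymal-like cluster led by Hapln1, Sox9 and Col9a3, matrix genes and a regulator of cushion mesenchyme, had 19.3 CPM (16.9 to 21.9) and 22.2 CPM (18.7 to 26.1). The intervals of the 2 clusters were far apart in both libraries, while the libraries differed little within each. Over all mesenchymal-like cells the ratio was 1.09 (0.987 to 1.21). An unnamed cluster led by Tcf21 and Ebf1 had 51.7 and 60.5 CPM. In epicardial-like cells Edn1 was at 33.4 CPM in control and 57.6 CPM in H2CKO (376 and 132 UMIs), a ratio of 1.72 (1.40 to 2.11), short of the 2-fold call. With Ece1, 2 of the 4 genes could be compared in each of these classes and 0 were past 2-fold, against 3.83% of 6546 genes in mesenchymal-like and 5.69% of 6289 in epicardial-like cells. In epicardial-like cells 9 of 10 platelet markers (42.0 and 99.9 CPM summed) and 8 of 12 white blood cell markers (6.84 and 15.7 CPM) were higher in H2CKO. Mesenchymal markers summed to 2507 and 1863 CPM there, with 7 of 12 higher. Their part in the Edn1 difference was not tested.

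Summed over all kept cells, Edn1 was similar in the libraries, at 19.1 CPM in control and 17.6 CPM in H2CKO, but its sources were divided differently. In control, 36.0% of Edn1 UMIs came from mesenchymal-like cells, 33.3% from the second endothelial cluster, 12.3% from epicardial-like and 3.64% from endothelial-like cells. In H2CKO the endothelial-like cells gave 36.4%, the second cluster 24.1%, mesenchymal-like cells 19.5% and epicardial-like cells 4.22%. These shares follow both the level per cell and the number of cells captured.

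Ece1, which encodes the enzyme that frees the active peptide, was also highest in endothelium, and was lower in H2CKO. In control it was at 366 CPM in endothelial-like cells (341 to 394; 744 UMIs) and 285 CPM in the second cluster (269 to 301; 1265 UMIs), followed by 63.1 CPM in epicardial-like (58.5 to 67.9) and 52.7 CPM in mesenchymal-like cells (49.8 to 55.8). Intervals of neighbours in this order did not overlap. Cardiomyocyte-like cells had 6.05 CPM. In H2CKO endothelial-like cells Ece1 was at 98.0 CPM (90.4 to 106; 617 UMIs), 3.74-fold lower than in control (3.36 to 4.17), a log2 ratio of -1.85. The share of cells with a UMI was 86.7% in control and 60.3% in H2CKO (77.8% and 35.2% after thinning), and the median cell held 5 and 1 UMIs. Only 0.933% of compared genes had a log2 ratio below that of Ece1.

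**Figure D2:**
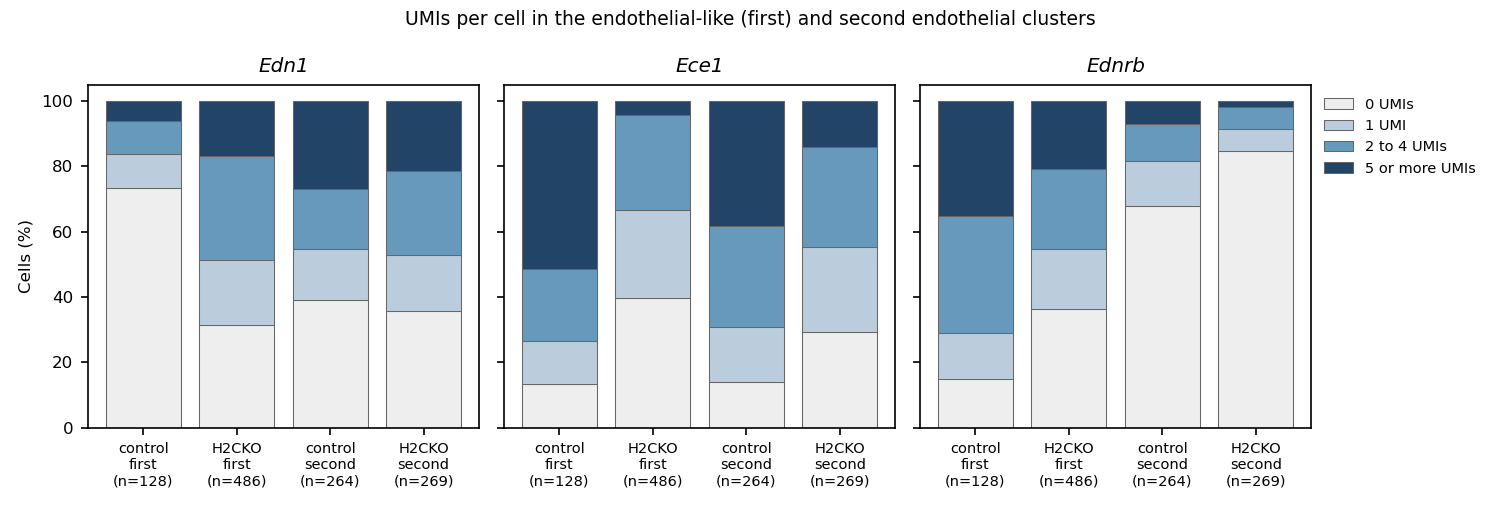
Share of cells (%) with 0, 1, 2 to 4 and 5 or more UMIs of Edn1, Ece1 and Ednrb in the endothelial-like (first) and second endothelial clusters of each library, without correction for depth. In the endothelial-like class, cells with 5 or more Ece1 UMIs were 51.6% in control against 4.32% in H2CKO, and cells without an Edn1 UMI 73.4% against 31.5%.

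Unlike for Edn1, the lower Ece1 level was seen in both endothelial clusters. The second cluster had 285 CPM in control and 179 CPM in H2CKO, 1.59-fold lower (1.44 to 1.75). With both clusters together the log2 ratio was -1.27, which is past 2-fold. Ece1 was 1.71-fold lower in mesenchymal-like cells (1.52 to 1.93) and 1.81-fold lower in epicardial-like cells (1.43 to 2.31). In mesenchymal-like cells all 12 mesenchymal markers were lower as well (8262 and 4101 CPM summed), and in both classes the erythroid markers were higher (the values stand with those of Hand2). The part of either in the Ece1 difference was not tested. In cardiomyocyte-like cells it was at 6.05 CPM in control and 5.26 CPM in H2CKO. Ece1 is a long gene, and genes of like span had a median log2 ratio of -0.63 in endothelial-like cells. Taken relative to them, the Ece1 log2 ratio was -1.22 in endothelial-like cells, -0.12 in the second cluster, -0.05 in mesenchymal-like and -0.13 in epicardial-like cells. Thus only in endothelial-like cells, among these 4 groups, was Ece1 more than 2-fold below genes of its length. Within endothelial-like cells with an Npr3 or Nfatc1 UMI it was at 392 CPM in control and 107 CPM in H2CKO. In those without, it was at 88.0 CPM (15 UMIs) and 73.8 CPM, a log2 ratio of -0.24 that is not past 2-fold. That control value rests on 19 shallow cells (median 7855 UMIs). In the second cluster, control cells with an Npr3 or Nfatc1 UMI had 293 CPM of Ece1 and those without had 193 CPM (151 to 243).

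Among smaller clusters, the mesenchymal-like cluster led by Rgs5, Eln and Isl1 (39 control and 74 H2CKO cells) had 144 CPM of Ece1 in control (105 to 195) and 75.8 CPM in H2CKO (52.8 to 105). The cluster led by Tcf21 and Ebf1 had 47.0 CPM in control (99 UMIs, against 23 in H2CKO), a ratio of 0.406 (0.246 to 0.644). The cluster led by Hapln1 and Col9a3 had 55.8 and 27.4 CPM, and that led by Tgfbi and Meox1 46.3 and 31.3 CPM. The mesenchymal-like clusters thus ranked differently for the enzyme than for the ligand.

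**Figure D3:**
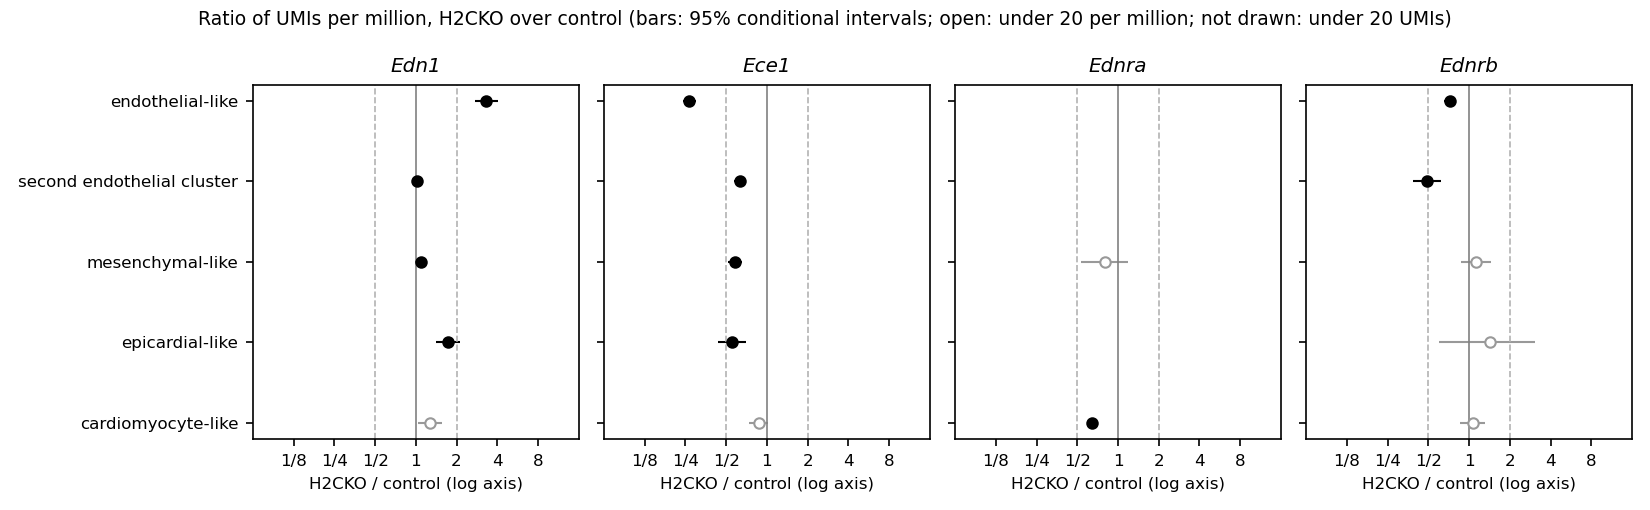
Ratio of CPM, H2CKO over control (log axis, 1 library each), with 95% conditional intervals; filled points had at least 20 UMIs and 20 CPM in the higher library, open points a lower CPM, points with fewer UMIs are not drawn, and dashed lines mark 2-fold. In endothelial-like cells Edn1 lies at 3.31 and Ece1 is 3.74-fold lower, while in cardiomyocyte-like cells Ednra lies at 0.645.

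Ednrb, the receptor that clears endothelin and signals in endothelium, was found mainly in endothelial-like cells, which held 43.6% of its UMIs in control and 71.4% in H2CKO. In control it was at 292 CPM there (269 to 317; 593 UMIs), 61.9 CPM in the second cluster (54.8 to 69.6; 275 UMIs) and 27.2 CPM in white blood cell-like cells. It was at or below 7.61 CPM in mesenchymal-like, cardiomyocyte-like and epicardial-like cells. The 37 UMIs of the white blood cell-like class came from 6 cells, 23 of them from 1 cell. In H2CKO, endothelial-like cells had 211 CPM of Ednrb (199 to 222; 1326 UMIs), a ratio of 0.721 (0.654 to 0.796) and a log2 ratio of -0.46. The share of cells with a UMI was 85.2% in control and 63.8% in H2CKO. This difference was not past 2-fold, and it was close to that of all compared genes. Taken relative to the median gene the log2 ratio was -0.21, relative to genes of like span -0.14, and with both endothelial clusters together it turned to 0.15. In the second cluster Ednrb was at 30.3 CPM in H2CKO (97 UMIs), a ratio of 0.489 (0.384 to 0.619) and a log2 ratio of -0.92. Relative to genes of like span that log2 ratio was -0.63. There, 0 of the 3 genes compared were past 2-fold, against 0.621% of 6598 compared genes upward and 3.38% downward.

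In the cells of the second cluster with an Npr3 or Nfatc1 UMI, Ednrb was at 64.8 CPM in control and 26.1 CPM in H2CKO, a ratio of 0.403 (0.304 to 0.528). In the 37 control and 84 H2CKO cells without either it was at 29.5 CPM (11 UMIs) and 48.3 CPM (29 UMIs), a ratio of 1.64 (0.795 to 3.64). In white blood cell-like cells the log2 ratio was -1.01 (37 against 20 UMIs), against 7.77% of 5944 compared genes past 2-fold. Without the 2 richest cells of each library 8 and 10 UMIs remained, so that ratio rests on them. In this class all 10 platelet markers (2965 and 1114 CPM summed) and 9 of 12 cardiomyocyte markers were also lower in H2CKO, and their part in it was not tested.

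Ednra, the receptor through which endothelin drives contraction and neural crest patterning, had a different site from the other 3 genes. Cardiomyocyte-like cells held 69.8% of its UMIs in control and 73.7% in H2CKO. Their level was 33.4 CPM in control (31.7 to 35.1; 1479 UMIs) and 21.5 CPM in H2CKO (20.4 to 22.7; 1348 UMIs), a ratio of 0.645 (0.599 to 0.695) and a log2 ratio of -0.53. A UMI was seen in 37.4% and 32.6% of cells. Marker lists moved with it in this class: 7 of 8 smooth muscle markers (4722 and 3462 CPM summed), 11 of 12 mesenchymal (523 and 323 CPM) and 7 of 7 atrial markers (14242 and 14024 CPM) were lower in H2CKO, ventricular markers summed to 17998 and 25440 CPM, and 11 of 12 white blood cell markers were higher (10.4 and 57.0 CPM). Outflow markers (5 of 6, 105 and 75.1 CPM), atrioventricular canal markers (4 of 5, 118 and 85.1 CPM) and 7 of 10 neural crest markers were lower as well, and all 10 platelet markers higher (29.2 and 34.3 CPM). Their part in the Ednra difference was not tested. The difference was not past 2-fold, as was true of all but 0.722% of the 5541 genes compared in this class. Relative to genes of like span it was -0.19, and with a stricter filter on cells -0.84. That last value rests on few H2CKO cells, since the filter left 84 of the 1348 H2CKO UMIs of Ednra and 989 of the 1479 control ones. In mesenchymal-like cells Ednra was at 4.02 CPM (93 UMIs) and 3.23 CPM (38 UMIs), in epicardial-like cells at 1.69 CPM (19 UMIs) and 0.436 CPM (1 UMI). In endothelial-like cells there were 1 and 7 UMIs. That level was within the counting error of the erythroid-like level in control and above the 0.262 CPM of erythroid-like cells in H2CKO. Cardiomyocyte markers summed to 1356 and 1697 CPM in endothelial-like cells. The part of RNA from cardiomyocytes in the 7 UMIs was not tested.

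**Figure D4:**
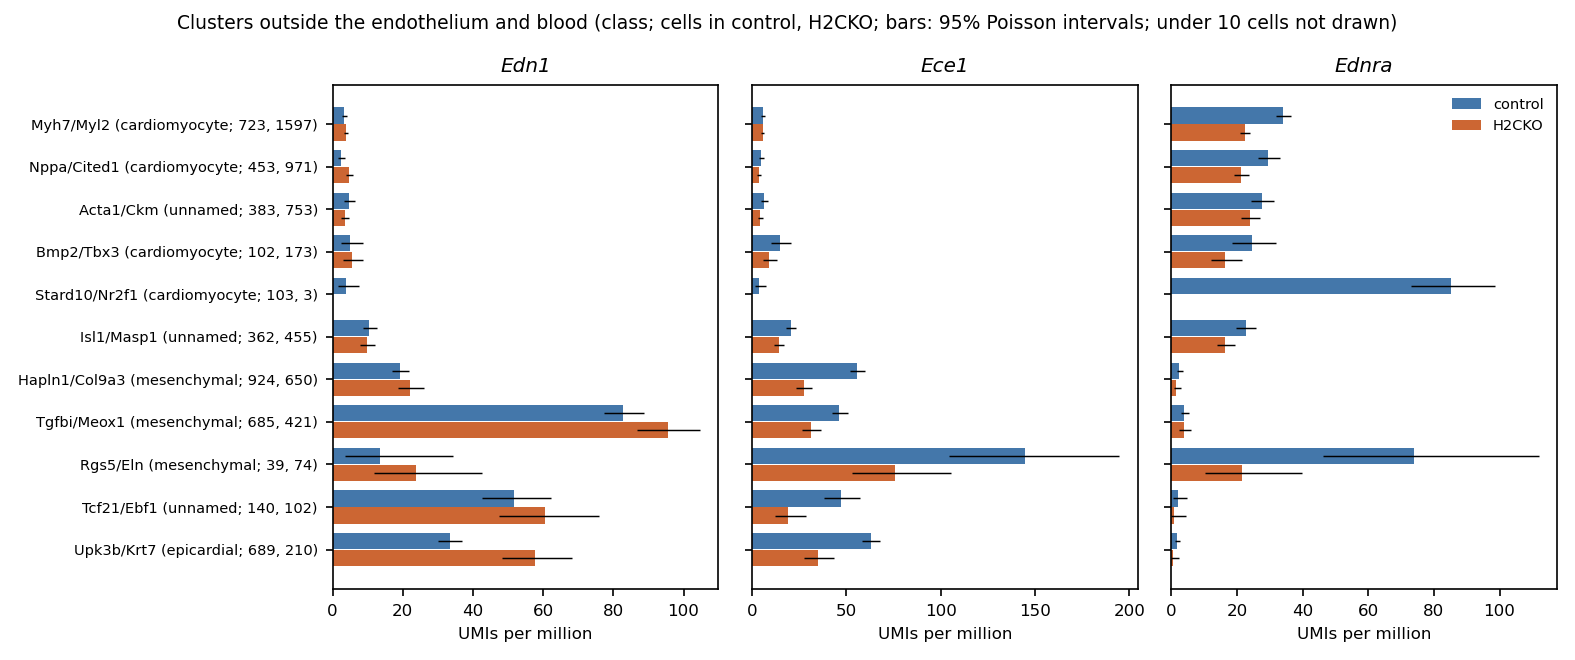
Levels of Edn1, Ece1 and Ednra in CPM in 11 clusters outside endothelium and blood (2 shallow ones are not drawn), each named by 2 leading genes, with its class and its cells in control and H2CKO; bars start at 0 and carry 95% Poisson intervals. Edn1 peaked in the Tgfbi and Meox1 cluster, Ece1 in the Rgs5 and Eln cluster, and Ednra in the control cells of the Stard10 and Nr2f1 and the Rgs5 and Eln clusters.

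Within the muscle of the heart Ednra was uneven. The cluster led by Stard10 and Nr2f1, both known atrial genes, had 85.1 CPM (73.0 to 98.6; 177 UMIs in 103 cells) in control, and only 3 of its cells came from H2CKO. The ventricular-type cluster led by Myh7, Myl2 and Ttn had 34.1 CPM in control and 22.4 CPM in H2CKO, and that led by Nppa and Cited1 had 29.6 and 21.3 CPM. The cluster with Bmp2 and Tbx3, genes of the atrioventricular canal, had 24.5 and 16.2 CPM. Unnamed clusters with cardiomyocyte markers had 27.7 and 23.9 CPM (led by Tnni2, Ckm and Acta1) and 22.6 and 16.5 CPM (led by Rspo3, Masp1 and Isl1). Without the Stard10 and Nr2f1 cluster the cardiomyocyte-like log2 ratio was -0.43. A shallow cardiomyocyte-like cluster led by Myl1 and Tcea3 (817 control and 220 H2CKO cells, with medians of 1694 and 2060 UMIs), which is not plotted, had the lowest control level of these muscle clusters, at 12.9 CPM (41 UMIs) and 10.6 CPM (14 UMIs), a ratio of 0.827 (0.416 to 1.55). Each of these clusters with over 100 cells in both libraries had a lower level in H2CKO, by less than 2-fold.

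The one mesenchymal-like cluster rich in Ednra was that led by Rgs5 and Eln, with 73.9 CPM in control (46.3 to 112) and 21.7 CPM in H2CKO (10.4 to 39.8). These levels came from 22 UMIs in 14 cells and 10 UMIs in 8 cells. Rgs5 and Eln are known genes of vessel wall cells, and the smooth muscle markers of the cluster summed to 968 CPM in control and 2849 CPM in H2CKO. Lower in H2CKO were 11 of 12 mesenchymal (5789 and 2728 CPM) and 7 of 7 endocardial markers (417 and 251 CPM). So were 5 of 5 atrioventricular canal (249 and 77.9 CPM) and 4 of 6 outflow markers (1656 and 1193 CPM). Of these lists, 1 mesenchymal and 1 outflow marker were higher. Their part in the Ednra and Ece1 differences of this cluster was not tested. Of the 10 listed neural crest markers, 8 in control and 6 in H2CKO were at 0 in this cluster, with Sox10, Foxd3, Tfap2a and Tfap2b at 0 in both. The whole list summed to 212 and 90.9 CPM. With 39 and 74 cells of low depth (medians of 7135 and 5812.5 UMIs), a 0 does not show absence. The 2 other mesenchymal-like clusters had at most 3.98 CPM of Ednra.

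The ligand, the enzyme and receptor B could be found in the same endothelial cells. Edn1 and Ece1 were seen together in 31 of the 128 endothelial-like cells of the control (24.2%) and 214 of the 486 of H2CKO (44.0%). The product of the separate shares of the genes was 23.0% and 41.3%, close to what was seen. Ece1 and Ednrb were seen together in 98 control (76.6%) and 205 H2CKO cells (42.2%). In the second cluster, Edn1 and Ece1 were together in 56.4% of control and 47.2% of H2CKO cells, and Edn1 and Ednrb in 19.7% and 10.4%. UMIs of both receptors were seen in 0 of 128 and 5 of 486 cells of the endothelial-like class, where Ednra had 1 and 7 UMIs in all, so cells that make both receptors could not be counted at this depth. These shares depend on depth, which was lower in H2CKO.

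GFP UMIs were used to look for cells in which Cre acted, though the control, which has no Cre, held some too. In endothelial-like cells GFP was at 957 CPM in H2CKO (a UMI in 60.9% of cells) and 13.3 CPM in control (18.8%). The 296 endothelial-like cells with a GFP UMI had 193 CPM of Edn1, 96.1 CPM of Ece1 and 213 CPM of Ednrb. The 190 without had 157, 102 and 207 CPM, at a lower depth (medians of 11262.5 and 9722 UMIs). In the second cluster, where 87.4% of H2CKO and 23.5% of control cells had a GFP UMI, Ece1 was at 186 CPM (171 to 203) in the 235 H2CKO cells with and 92.7 CPM (58.1 to 140) in the 34 without, again at a lower depth (9682 and 6623 UMIs), and Edn1 was at 236 and 227 CPM. In endothelial-like cells Hand2 was at 9.15 CPM (6.47 to 12.6) in the cells with and 20.1 CPM (14.5 to 27.0) in those without a GFP UMI, both far under the 170 CPM of the control. In the cluster led by Hapln1 and Col9a3 it was at 8.06 and 24.8 CPM. In that cluster a GFP UMI was seen in 54.0% of H2CKO and 18.7% of control cells, and Edn1 was at 22.2 CPM with and 22.1 CPM without one. In the cluster led by Tgfbi and Meox1 one was seen in 53 of 421 H2CKO and 103 of 685 control cells, with 220 and 118 GFP UMIs in all (46.3 and 11.4 CPM), so a single GFP UMI did not mark Cre there and no split is given.

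Other ligands and enzymes of the family were sparse. Edn2 had 75 UMIs in all control cells, 63 of them in epicardial-like cells (5.60 CPM, and 5.67 CPM in H2CKO). Edn3 had 25 and 13 UMIs, of which 15 and 6 were in the cluster led by Rspo3, Masp1 and Isl1. Ece2 was found mainly in mesenchymal-like cells, with 111 of its 125 control UMIs there (4.80 CPM, and 2.89 CPM in H2CKO). Kel, a related enzyme carried by red cells, was at 90.4 and 58.2 CPM in erythroid-like cells.

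Of 51 further genes listed for the pathway, 24 could be compared in endothelial-like cells, 2 of which were higher and 7 lower by over 2-fold, Hand2 among the latter. Over all compared genes of this class 1.44% were higher and 8.23% lower. The listed genes had a median log2 ratio of -0.43 against -0.25 for all compared genes. Proteases that act before ECE1 were among the lower ones: Furin was at 50.7 CPM in control and 14.5 CPM in H2CKO (-1.52), and Pcsk5 at 30.5 and 6.51 CPM (-1.63). With Ece1, these were the 3 of 8 listed processing and clearance genes that could be compared. Of the other 5, the furin-type Pcsk7 was at 10.3 CPM (21 UMIs) and 13.2 CPM (83 UMIs), a ratio of 1.27 (0.782 to 2.17). Among 8 compared genes of G protein signalling, Itpr2, a calcium channel of internal stores, was lower (87.2 and 22.7 CPM, -1.73). Rgs2, which switches off Gq signalling, was higher (9.85 CPM from 20 UMIs, and 33.4 CPM, 1.37). The other 6 were within 2-fold.

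All 10 listed regulators of Edn1 could be compared in endothelial-like cells, and 9 of them had a log2 ratio below 0, as did 68.8% of all compared genes, with a median of -0.48 against -0.25. Past 2-fold were 1 upward and 3 downward, against 1.44% and 8.23% of all genes. Egr1 alone was higher (24.6 and 72.3 CPM, 1.38), and Jun (407 and 193 CPM, -1.05), Gata4 (97.0 and 43.8 CPM, -1.06) and Hif1a (154 and 70.4 CPM, -1.07) were lower. Klf2, a flow-responsive factor that restrains Edn1 in cultured endothelium, was at 511 CPM in control and 416 CPM in H2CKO endothelial-like cells. It was at 2077 and 2319 CPM in the second cluster, where Edn1 was also highest. Mef2c, listed downstream of Ednra, was at 71.9 and 147 CPM (0.98), just under the call.

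**Figure D5:**
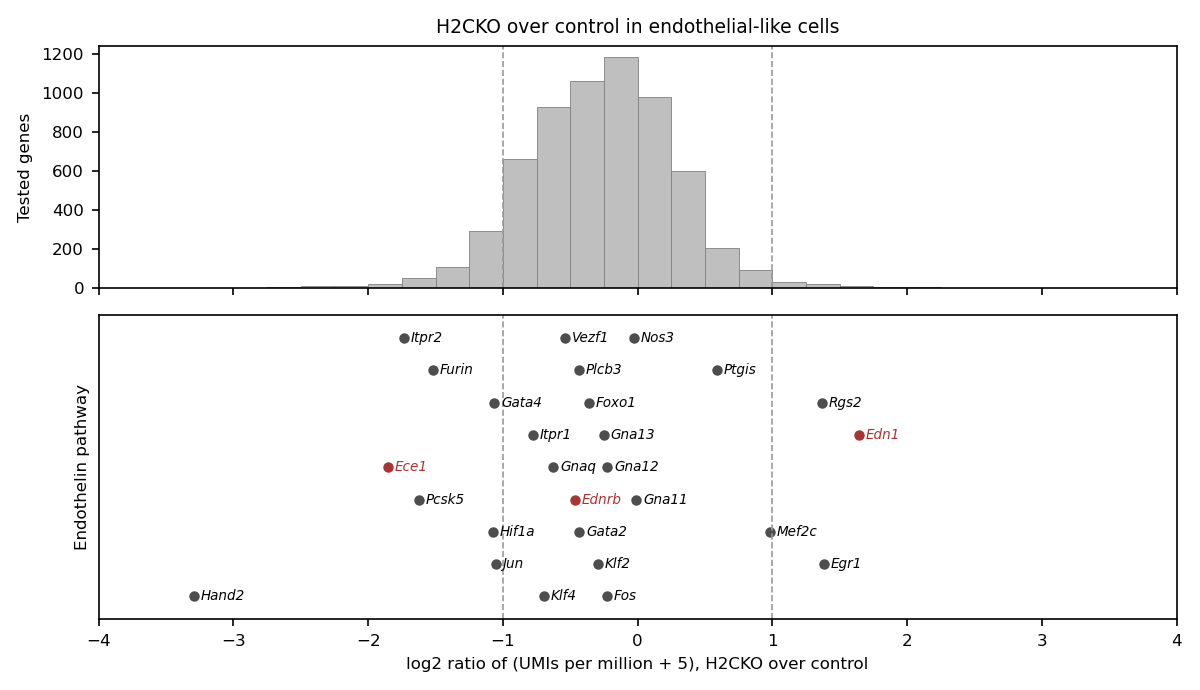
Top, number of compared genes by log2 ratio (H2CKO over control) in endothelial-like cells; bottom, the endothelin pathway genes that could be compared, with Edn1, Ece1 and Ednrb in red, heights arbitrary and dashed lines at 2-fold. Edn1 (1.64) and Ece1 (-1.85) lie on opposite sides of the distribution, whose median is -0.25.

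In the other classes few listed genes passed 2-fold. In mesenchymal-like cells 22 were compared, 0 higher and 4 lower, against 0.474% and 3.36% of all 6546 compared genes. These were Furin (85.1 and 35.7 CPM, -1.15), Plcb1, an effector of Gq (20.4 and 7.65 CPM, a ratio of 0.376), Itpr2 (45.0 and 16.5 CPM, -1.22) and Hand2. In cardiomyocyte-like cells 0 of 17 passed, against 0.722% of all 5541 compared genes, so nothing is read from this count. In the second endothelial cluster 27 were compared and 1, Hand2, was lower by over 2-fold, against 3.38% of all genes. In epicardial-like cells Mme, which degrades endothelin (-1.07), Pcsk5 (-1.32) and Egr1 (-1.35) were lower, 3 of 20, against 5.17% of 6289 genes lower by over 2-fold.

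The genes whose levels followed each of the 4 most closely were sought over 12 sums (6 named classes in 2 libraries) of log2(CPM plus 5). For Edn1 these were Cdc42ep1 (Pearson's r 0.976), Traf4, Fam171a2, Map1lc3b and Gap43 (0.952). For Ece1 they were Adgrg6 (0.982), Tns2, Tek, Foxc1 and Palm (0.972). For Ednra they were Myocd (0.990), Cend1, Kcnk3, Cacna1c and Ppargc1a (0.985), of which Myocd and Cacna1c are well known in heart muscle. For Ednrb they were Kdr (0.990), Tie1, Scarf1, Fgd5 and Flt1 (0.983), several of them receptors that define endothelium. The sums share libraries and their depth, so these values are descriptions. They leave out the unnamed second endothelial cluster, which had the highest Edn1 level (229 and 235 CPM). Ednrb was lower in that cluster (61.9 and 30.3 CPM) than in endothelial-like cells, so the r values do not cover it. Between the 4 genes r was 0.86 for Ece1 with Edn1, 0.75 for Ece1 with Ednrb, 0.58 for Edn1 with Ednrb, and -0.29 to -0.26 for Ednra with the others.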

How the data were processed

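Cells of whole hearts were captured with a droplet kit that counts RNA at its 3′ end. The authors deposited, per library, raw UMI counts per gene and cell (whole numbers, not normalized) and a table of embedding coordinates (scores, used here only for an alternative choice of cells). The submitters' processing notes name Cell Ranger 5.0.1, Seurat 4 and GRCm38.p6. Totals were 195825720 UMIs in 14114 control barcodes and 201477256 UMIs in 13885 H2CKO barcodes.

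Barcodes needed 500 genes or more and no more than 10% of UMIs from mitochondrial genes. Likely doublets were removed with Scrublet in scanpy 1.11.5: 920 control cells by its automatic threshold, and in H2CKO, where that threshold marked 0 of 12141 cells, the top 5% by score (608). Cells were clustered (Leiden, resolution 1, 30 components of 2000 variable genes, neighbours balanced between libraries) without the 4 genes, Hand2, hemoglobins, the reporters and sex-linked genes. This gave 21 clusters, 5 of them unnamed. UMIs were summed per class and library. Levels have exact Poisson intervals, shares exact Clopper-Pearson intervals, and ratios exact conditional intervals. With 1 library per group no test was made. Gene symbols matched 22285 of 22401 features.

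The 4 genes and the lists were chosen with earlier results of these data known. The genes were reported in every class, and other pathway genes were named when compared and past 2-fold, with Hand2, Klf2, Edn2, Edn3, Ece2 and Kel named in any case. Mef2c, Pcsk7, single clusters and the pathway in the second endothelial cluster and epicardial-like cells were described after their values were seen. Splits by Npr3 or Nfatc1, the correction for gene span and the Stard10 cluster left out were also chosen after seeing the data.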

Additional observations from a re-analysis of the deposited data

How the results depend on the processing

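No paired analysis was possible because each group has 1 library. Other settings were another pseudocount, centring on the median gene, thinning, a strict filter (1500 genes or more, no more than 5% mitochondrial UMIs), keeping doublets, a coarser clustering, naming each cell by its own markers, the cells of the deposited embedding, subtracting free RNA, and the splits given above.

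Several settings (pseudocount, centring, free RNA, span) rescaled the same cells, and the coarser clustering returned the same endothelial-like cells. Their agreement was thus largely fixed in advance and adds little to the tallies below. The log2 ratio of Edn1 in endothelial-like cells was positive in all 13 settings and past 2-fold in 11. Not past it were the settings that pooled a wider set of endothelial cells: 0.17 with cells named by their own markers and 0.19 with both endothelial clusters together. In cells without Npr3 or Nfatc1 the log2 ratio was 1.21. That of Ece1 was negative in all 13 and past 2-fold in 12, with -1.60 when centred, -1.34 by own markers, -1.27 with both clusters, -1.22 relative to span and -0.24 without Npr3 or Nfatc1. That of Ednrb was negative in 10 of 13, with -0.21 when centred, -0.62 under the strict filter, -0.14 relative to span, 0.079 by own markers, 0.15 with both clusters and 0.014 without Npr3 or Nfatc1. Ednra in cardiomyocyte-like cells was negative in all 11, with -0.37 when centred, -0.84 under the strict filter, -0.38 with doublets kept and -0.19 relative to span. In mesenchymal-like and epicardial-like cells its sign held in 8 and 7 of 10 settings, and its counts (93 and 38, and 19 and 1) were too few to place it. Thinning gave 205 CPM for Edn1 in H2CKO and 340 CPM for Ece1 in control endothelial-like cells. The cause of these shifts was not tested.

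Counts of genes past 2-fold moved more. With at least 100 CPM asked for they were 181 in place of 611 in endothelial-like, 99 in place of 251 in mesenchymal-like and 20 in place of 40 in cardiomyocyte-like cells. With a pseudocount of 1 CPM they were 464 in mesenchymal-like and 73 in cardiomyocyte-like cells. Centring gave 106 in mesenchymal-like cells, and in cardiomyocyte-like cells there were 65 with no minimum of CPM and 234 under the strict filter. PCR copies were collapsed by UMI, but counting intervals do not cover differences between embryos.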
